A study of Rattus norvegicus with 23 samples.

Results

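Growth plate and articular cartilage genes were examined in bulk femur RNA from female Wistar rats. The set held 33 genes of the 30562 in the deposited table, taken by gene symbol, and it covered collagens, proteoglycans, secreted proteins, transcription factors, receptors and sulfation enzymes of cartilage. It was described in all 23 libraries of the series. Polyadenylated RNA was sequenced from 4 healthy controls, whose titles carry a standard diet, saline and the tag oLN, and from 19 libraries of a metabolic osteoporosis model named MetOP. Every MetOP rat was fed high-fat chow together with L-NAME, which blocks nitric oxide synthesis, and the titles of these libraries also carry a tag (lfd) that the labels leave unexplained. On that shared background, 5 libraries came from rats given saline, 5 from rats given semaglutide, 4 from rats given the gut peptide PYY3-36 and 5 from rats given both drugs, called the combination here. Semaglutide activates the GLP-1 receptor. The treatment labels of the 4 PYY libraries end in different numbers, so their common treatment rests on their titles. The labels give no ages, doses or treatment times. They also do not state 1 animal per library, so the p-values reflect sample-to-sample spread that may be technical.

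In the growth plate, chondrocytes pass from a resting state through columns of dividing cells to large hypertrophic cells, whose matrix is then mineralized and replaced by bone. Dividing and resting chondrocytes make type II collagen and aggrecan under the transcription factor Sox9 and its partners Sox5 and Sox6. Prehypertrophic cells secrete Indian hedgehog (Ihh), hypertrophic cells make type X collagen (Col10a1), and parathyroid hormone-related protein (Pthlh) from the resting end acts on its receptor Pth1r to hold back hypertrophy. Articular cartilage at the joint surface persists through life and is coated with lubricin, the product of Prg4, which synovium and tendon also make.

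Library totals ran from 19.25 to 40.65 M counts, and the mitochondrially encoded genes took 46.1 to 83.9% of them. All other genes together had 4.283 to 16.1 M counts per library. Levels are CPM, counts divided by the TMM-scaled library total in M, with the library's column name after its group, and a count of 0 allowed up to 0.0594 to 0.2 CPM depending on the library (3 counts, counting error only). Skeletal muscle markers summed to 1406 CPM in combination A320 and 2563 CPM in PYY A216, against 12700 to 55370 CPM in the other libraries. In bulk tissue, fewer cells of a type and less RNA per cell cannot be told apart.

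Summed RNA of the 33 genes was abundant in 5 libraries, intermediate in 3 and scarce in the remaining 15. The 5 are called cartilage-rich below, a name for this RNA and not a measure of tissue content. Every group but semaglutide and the combination held at least 1 of the abundant ones. The 33 genes took 3.765% of the non-mitochondrial counts in PYY A216, 2.24% in saline A224, 1.303% in control A392, 0.93% in saline A229 and 0.7276% in saline A226. They took 0.2658% in combination A253, 0.2029% in combination A248 and 0.1811% in PYY A215. In A215, 6582 of the 15746 counts of the set were Prg4, and Col2a1 was at 1.69 CPM. Semaglutide A243, at 0.01481%, stood at the low end, and all 5 semaglutide libraries lay between 0.01481% and 0.03939%. That range also held control A389 (0.0183%) and A390 (0.0239%), PYY A220 (0.0195%) and combination A251 (0.0196%) and A318 (0.0274%). PYY A216 had the highest level of all 23 libraries for 19 of the 33 genes and saline A224 for 6. Within the controls, A392 was the highest for 25 genes, and within PYY, A216 was the highest for 29. These libraries stand apart from others of the same label, so each comparison below is given with and without them where they decide it.

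**Figure D1:**
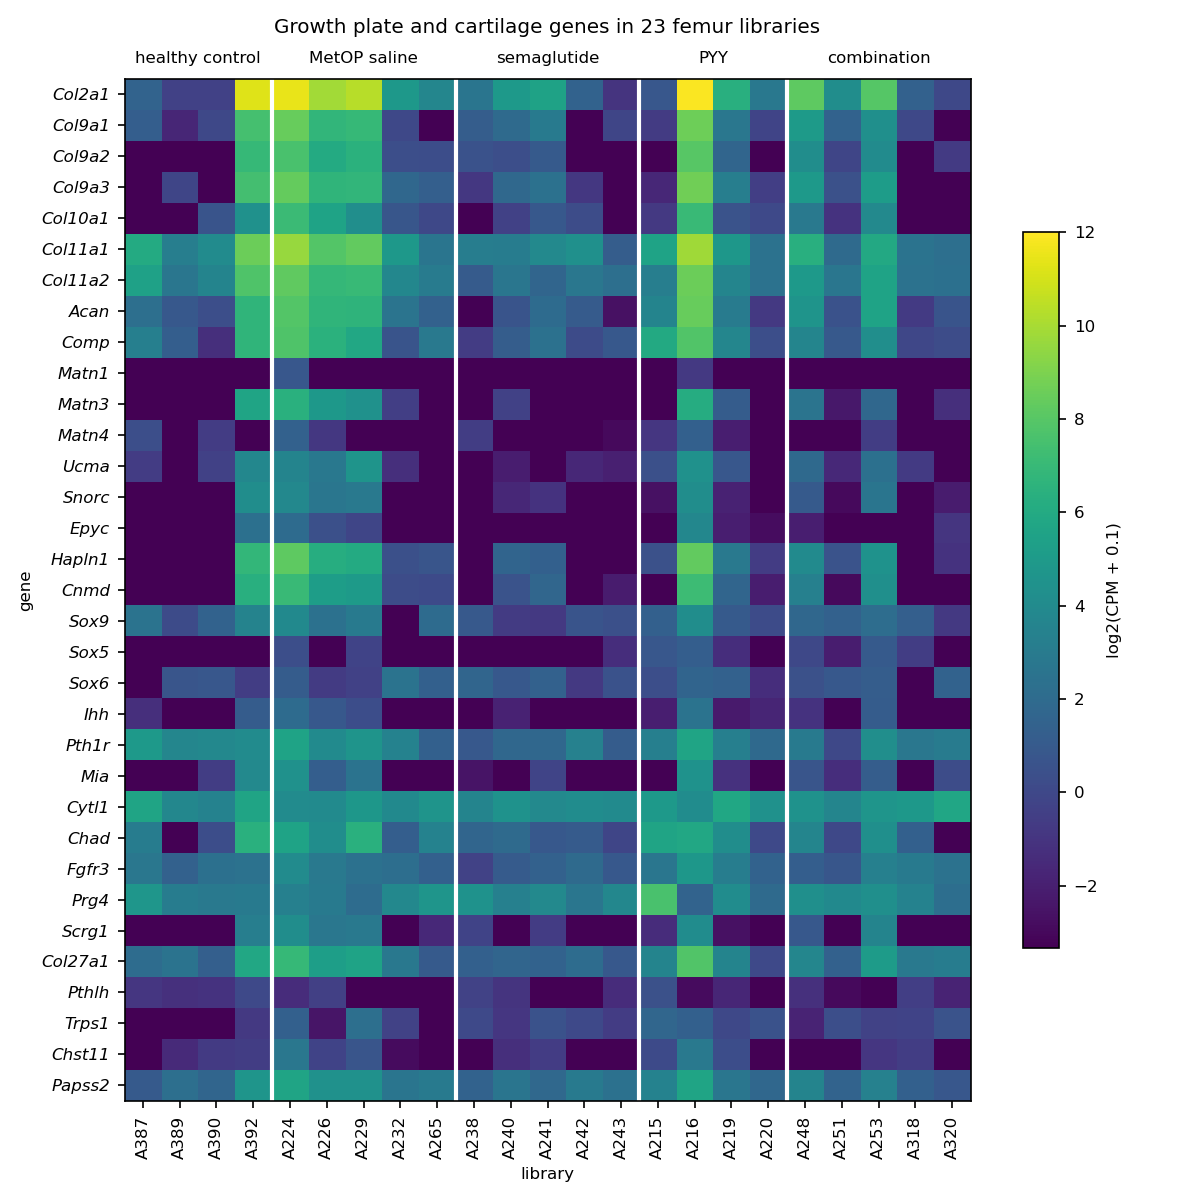
Levels of the 33 genes (rows) in the 23 libraries (columns, grouped by treatment), as log2 of CPM plus 0.1. Most rows are bright in the same few columns (A392, A224, A226, A229, A216 and, less so, A248 and A253), while Cytl1, Prg4 and Sox6 do not follow that pattern.

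Col2a1 encodes the chain of type II collagen, the main fibril of cartilage (mRatBN7.2, chromosome 7, 129098786 to 129127546, as in the deposited table). Its levels in controls were 2.81 CPM in A387, 0.677 in A389, 0.685 in A390 and 2458 in A392. In MetOP saline they were 2834 CPM in A224, 958 in A226, 1322 in A229, 28.3 in A232 and 13.1 in A265. Thus 3 of 5 saline libraries and 1 of 4 control libraries were high, and the groups overlapped. With semaglutide the levels were 6.18 CPM in A238, 30.1 in A240, 46.1 in A241, 2.73 in A242 and 0.401 in A243. With PYY they were 1.69 CPM in A215, 3869 in A216, 80.2 in A219 and 6.93 in A220. In the combination they were 299.9 CPM in A248, 18.1 in A251, 249 in A253, 2.59 in A318 and 0.911 in A320. Single libraries thus set the spread in controls and PYY, and the semaglutide libraries overlapped all other groups at the low end.

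The other fibril collagens followed Col2a1. The type IX chains decorate the surface of type II fibrils, and Col9a1, Col9a2 and Col9a3 reached 388, 261 and 416 CPM in PYY A216. In control A392 they stood at 175, 121 and 172 CPM. In the other 3 controls these chains did not exceed 2.31 CPM, and Col9a2 had no count there. Col11a1 and Col11a2, which encode chains of the fibril core, were detected in all 23 libraries. Col11a1 had 66.9, 9.35, 16.8 and 383 CPM in controls A387, A389, A390 and A392. In MetOP saline it had 809, 235, 319, 28.3 and 6.17 CPM in A224, A226, A229, A232 and A265, so saline A232 lay within the range of the 3 low controls and A265 below it. Col11a2 ran from 8.35 to 304 CPM in saline and from 2.0 to 6.72 CPM with semaglutide, and these groups did not overlap. Col27a1, a further fibrillar collagen of cartilage, peaked at 226.1 CPM in PYY A216 and at 121 CPM in saline A224 and stayed between 1.79 and 4.15 CPM with semaglutide.

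Aggrecan (Acan, chromosome 1, 132981582 to 133043627) is the large proteoglycan that holds water in cartilage. It had 4.77, 1.73, 1.19 and 102.5 CPM in controls A387, A389, A390 and A392, and 241.2, 103, 98.6, 5.79 and 2.6 CPM in saline A224, A226, A229, A232 and A265. With semaglutide it had 0, 1.51, 4.0, 2.01 and 0.0617 CPM in A238, A240, A241, A242 and A243. Only saline A265 lay below the highest semaglutide library, so these groups overlapped through 1 library. With PYY the levels were 12.1, 351, 8.19 and 0.475 CPM in A215, A216, A219 and A220, and in the combination 24.8, 1.38, 47.1, 0.501 and 1.51 CPM in A248, A251, A253, A318 and A320. Hapln1, the link protein that ties aggrecan to hyaluronan, had no count in 3 of 4 controls and 111 CPM in A392, and it reached 313 CPM in PYY A216.

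Comp (cartilage oligomeric matrix protein, chromosome 16, 19047207 to 19055845) is a collagen-binding protein that cartilage shares with tendon. It had 9.65, 2.24, 0.319 and 105 CPM in controls A387, A389, A390 and A392, and 221, 87.1, 59.3, 1.48 and 7.26 CPM in saline A224, A226, A229, A232 and A265. With semaglutide it had 0.548, 2.22, 5.1, 1.02 and 1.73 CPM in A238, A240, A241, A242 and A243. The semaglutide range thus sat below 4 of the 5 saline libraries. With PYY Comp had 62.3, 231.8, 13.2 and 1.19 CPM in A215, A216, A219 and A220, and in the combination 12.4, 1.85, 18.97, 0.876 and 1.07 CPM in A248, A251, A253, A318 and A320. PYY A215 was high for Comp although Col2a1 was at 1.69 CPM there.

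The matrilins, adaptor proteins that link collagen to other matrix, varied in how often they were counted. Matn1 had 65 counts in saline A224 (1.67 CPM), 14 in PYY A216 (0.488 CPM) and none in the other 21 libraries, and it did not pass the filter on low counts, so 32 of the 33 genes were tested. Matn3 had counts in 12 libraries and reached 84.3 CPM in saline A224 and 50.1 CPM in control A392. Matn4 had counts in 10 libraries, with at most 2.57 CPM in saline A224. Epyc, the small proteoglycan epiphycan, had no count with semaglutide, against 0.802 to 3.95 CPM in the 3 high saline libraries and 13.4 CPM in PYY A216. Set against 3 counts over the whole semaglutide group, Epyc was at least 73.2-fold lower there than in MetOP saline and at least 121-fold lower than with PYY. These bounds use counts pooled over each group and cover counting error only, not the spread between libraries. In saline, 2 of 5 libraries had no Epyc count, and A224 was the highest. Nearly all of its PYY counts came from A216, since A215 had none and A219 and A220 had 0.148 and 0.0396 CPM. Snorc, a membrane proteoglycan of chondrocytes, peaked in control A392 and PYY A216, both at 18.1 CPM, and had no count in the other 3 controls. Chad, the leucine-rich protein chondroadherin, had 85.1 CPM in control A392, 85.3 CPM in saline A229, 58.7 CPM in PYY A216 and 49.1 CPM in PYY A215.

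Among the secreted proteins, Ucma, a Gla-rich protein of the upper growth plate, had 0.57, 0, 0.685 and 13.7 CPM in controls A387, A389, A390 and A392. It had 11.7, 6.88, 24.3, 0.326 and 0 CPM in saline A224, A226, A229, A232 and A265, and 0, 0.133, 0, 0.231 and 0.154 CPM in semaglutide A238, A240, A241, A242 and A243. Saline A229 rather than A224 was the highest library for it. With PYY it had 1.22, 21.1, 1.69 and 0 CPM in A215, A216, A219 and A220, and in the combination 3.63, 0.235, 4.95, 0.501 and 0 CPM in A248, A251, A253, A318 and A320. Cnmd, the vessel-repelling chondromodulin, Mia and Scrg1 were high in the same libraries as Col2a1, with 146, 21.996 and 17.4 CPM in PYY A216. Cytl1, a small secreted protein of cartilage and other connective tissue, was different. It was counted in every library, at 11.1 to 56.8 CPM, with 17.6 CPM in the cartilage-rich PYY A216 and 54.4 CPM in combination A320, where Col2a1 was at 0.911 CPM.

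Among the hypertrophic genes, Col10a1 (chromosome 20, 38182494 to 38189494) encodes type X collagen, which is made almost only by hypertrophic chondrocytes. It had no count in controls A387 and A389, 1.51 CPM in A390 and 21.8 CPM in A392. In MetOP saline it had 139, 47.2, 19.1, 1.59 and 0.908 CPM in A224, A226, A229, A232 and A265. With semaglutide it had 0, 0.665, 1.75, 1.09 and 0 CPM in A238, A240, A241, A242 and A243, which overlapped only the 2 low saline libraries. With PYY it had 0.495, 132, 1.419 and 0.951 CPM in A215, A216, A219 and A220. In the combination it had 7.12, 0.369, 14.7, 0 and 0 CPM in A248, A251, A253, A318 and A320. Ihh (chromosome 9, 76504315 to 76510532), the hedgehog ligand of prehypertrophic cells, was counted in 12 libraries and passed 1 CPM in 6 of them. Its levels there were 5.54 CPM in PYY A216, 3.93 in saline A224, 2.13 in combination A253, 2.07 in control A392, 1.76 in saline A226 and 1.14 in saline A229. Semaglutide A240, at 0.177 CPM from 4 counts, was the one semaglutide library with an Ihh count.

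Prg4 (chromosome 13, 62487257 to 62504119), the lubricin gene of the articular surface and synovium, had another pattern. It had 26.2, 8.42, 7.3 and 7.4 CPM in controls A387, A389, A390 and A392, and 10.1, 7.5, 4.21, 13.9 and 25.5 CPM in saline A224, A226, A229, A232 and A265. Its lowest saline levels were in the cartilage-rich libraries. With semaglutide it had 21.996, 9.98, 14.4, 6.29 and 13.5 CPM in A238, A240, A241, A242 and A243. With PYY it had 191 CPM in A215, 2.86 in A216, 17.6 in A219 and 3.84 in A220, so its highest and its lowest library of the series were both in this group. In the combination it had 19.7, 15.2, 19.5, 10.9 and 4.62 CPM in A248, A251, A253, A318 and A320. Pthlh, the signal of the resting end, never passed 1.28 CPM, its level in PYY A215. Its levels were 0.427, 0.338, 0.365 and 0.948 CPM in controls A387, A389, A390 and A392, and in saline 0.282 CPM in A224, 0.655 in A226 and 0 in the other 3. It had 0.705, 0.399, 0, 0 and 0.278 CPM in semaglutide A238, A240, A241, A242 and A243, and 0.0349, 0.207 and 0 CPM in PYY A216, A219 and A220. In the combination it had 0.335, 0.0336, 0, 0.626 and 0.189 CPM in A248, A251, A253, A318 and A320. At these levels no difference between groups was detectable.

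The promoters of Col10a1 and Prg4 are shown because these genes mark the hypertrophic and the articular end and had different patterns over libraries. Each run holds the 250 bases before the gene's start in the RefSeq table (build GRCr8, another build than that of the deposited counts), with capitals for the letters ACAAAG, a core of SOX sites, and for the TATA box letters TATAAA or, on the other strand, TTTATA. Col10a1 lies at chr20:39737286-39737535 on the plus strand, and Prg4 at chr13:65054226-65054475 on the minus strand.
Col10a1: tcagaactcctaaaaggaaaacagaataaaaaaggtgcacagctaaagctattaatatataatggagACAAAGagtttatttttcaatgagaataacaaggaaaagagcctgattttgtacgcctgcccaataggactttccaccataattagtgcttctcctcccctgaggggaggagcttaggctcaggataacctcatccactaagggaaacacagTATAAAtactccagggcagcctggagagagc
Prg4: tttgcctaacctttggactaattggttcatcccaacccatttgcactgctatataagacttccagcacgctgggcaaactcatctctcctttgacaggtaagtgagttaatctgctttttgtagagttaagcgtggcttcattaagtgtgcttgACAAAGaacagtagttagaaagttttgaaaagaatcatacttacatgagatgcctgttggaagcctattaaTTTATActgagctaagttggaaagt
The letters ACAAAG begin 183 bases before the start of Col10a1 and 96 before that of Prg4, and the TATA letters 31 and 25 bases before. Of the 33 genes, 22 had a promoter in the RefSeq table, searched on both strands from 250 bases before to 50 after the start. ACAAAG was in 5 of them (22.7%) and in 18.8% of 33469 promoters, and TATAAA in 4 (18.2%) against 14.2%. The SOX core ACAATG was in 1 (4.55%) against 13.2%, and the RUNX core TGTGGT in 3 (13.6%) against 17.3%. A match is a description of letters in this window and not a binding site.

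To compare hypertrophic with general cartilage inside a library, Col10a1 was set against Col2a1, as its percentage of the counts of both. Depth allowed this in the cartilage-rich libraries. The share was 0.879% (exact 95% binomial interval 0.792 to 0.973) in control A392 and 1.425% (1.27 to 1.6) in saline A229. It was 4.664% (4.54 to 4.79) in saline A224, 4.692% (4.43 to 4.96) in saline A226 and 3.3% (3.2 to 3.4) in PYY A216. The intervals of control A392 and saline A229 lay below those of the other 3 libraries, so cartilage-rich libraries differed in this share beyond counting error, within MetOP saline as well as between groups. Combination A248 and A253, with 6422 and 6804 counts for both genes, stood at 2.32% (1.97 to 2.72) and 5.57% (5.04 to 6.14). In libraries with under 150 such counts the share is imprecise, as in control A390, where 33 of 48 counts were Col10a1 (68.75%, 53.7 to 81.3). Group medians were 0.4395% in controls (n = 4), 4.692% in saline (n = 5), 2.165% with semaglutide (n = 5), 7.68% with PYY (n = 4) and 2.004% in the combination (n = 5), with ranges that overlapped between all groups.

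The articular gene was set against Col2a1 in the same way. Prg4 took 0.07384% of the counts of Prg4 and Col2a1 in PYY A216, and 0.3003 to 0.7767% in control A392 and saline A224, A226 and A229. It took 90.31, 92.56 and 91.43% in controls A387, A389 and A390, and 99.13% in PYY A215. The share was 23.82 to 97.12% with semaglutide, 32.96 and 65.99% in the low saline libraries A232 and A265, and 6.177 to 83.52% in the combination. Col2a1 varied over libraries far more than Prg4, which ran from 2.86 to 26.2 CPM in the 22 libraries other than PYY A215.

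**Figure D2:**
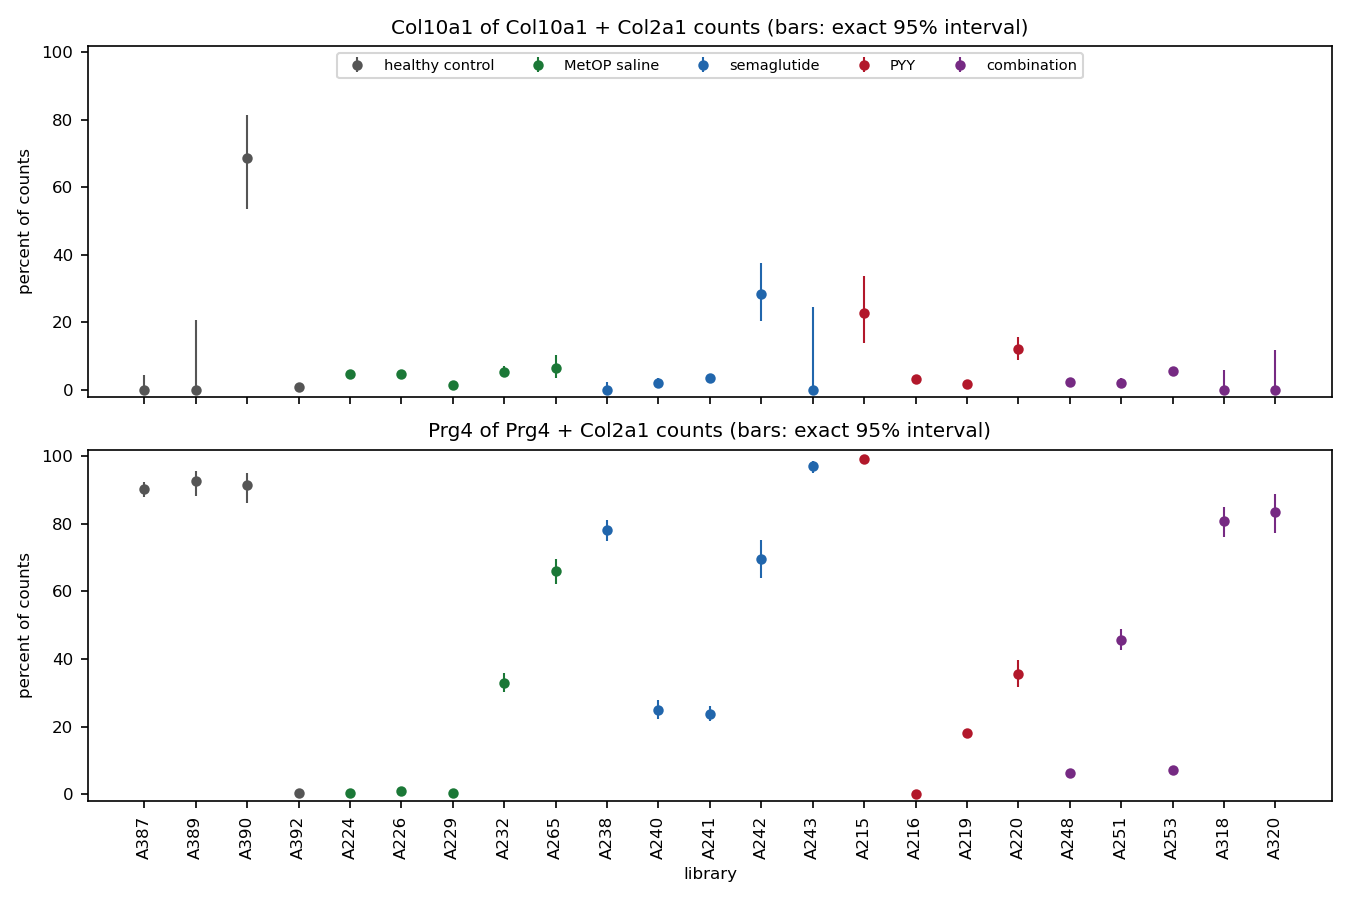
Share of Col10a1 (top) and Prg4 (bottom) in the summed counts of each with Col2a1, in percent, 1 point per library with an exact 95% binomial interval, coloured by group. The Col10a1 share lies under 7% in all 5 saline libraries, and wide intervals mark libraries with few counts. The Prg4 share is near 0 in A392, A224, A226, A229 and A216 and above 90% in A387, A389, A390, A243 and A215.

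The same shares of other members, chosen after their values were seen, are given for the 5 cartilage-rich libraries and for combination A253. Ucma took 1.807% (1.63 to 2.0) of its sum with Col2a1 in saline A229, against 0.4124% (0.376 to 0.452) in saline A224 and 0.5559% (0.487 to 0.632) in control A392. Chad took 6.06% (5.74 to 6.39) in saline A229 and 3.345% (3.18 to 3.52) in control A392, against 1.622% in saline A224 and 1.496% in PYY A216. Ihh took 0.08427% (0.0587 to 0.117) in control A392 to 0.1836% (0.133 to 0.247) in saline A226 among the 5, and 0.8488% (0.64 to 1.1) in A253. Combination A253 stood at 1.953% (1.63 to 2.32) for Ucma and 7.394% (6.79 to 8.04) for Chad, above saline A229 in both. Among the 5 cartilage-rich libraries alone, saline A229 was therefore high in Ucma and Chad and low in Col10a1 relative to Col2a1. Acan took 4.002% in control A392 and 6.944 to 9.699% in the saline and PYY libraries of that set, and 15.94% in combination A253. On the length-corrected FPKM scale, the order of levels in PYY A216 was Col2a1 (814 FPKM), Col9a3 (160.5), Hapln1 (135), Col11a1 (118) and Cnmd (103), and saline A224 had the same order. Saline A229 had Col2a1 (281 FPKM) first and Chad (45.1) second, with Ucma (30.7) in place 5.

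The transcription factors were low. Sox9, the master factor of chondrocytes, had 5.56, 1.02, 2.69 and 11.6 CPM in controls A387, A389, A390 and A392, and 15.4, 5.16, 7.62, 0 and 4.0 CPM in saline A224, A226, A229, A232 and A265. With semaglutide it had 1.88, 0.532, 0.495, 1.45 and 1.26 CPM in A238, A240, A241, A242 and A243, above saline A232 and below the other 4 saline libraries. It reached 18.4 CPM in PYY A216, with 2.53, 1.95 and 1.05 CPM in A215, A219 and A220, and had 3.35, 2.55, 4.34, 2.42 and 0.471 CPM in combination A248, A251, A253, A318 and A320. Its partner Sox5 had no count in any control and was found in 10 libraries, with a maximum of 2.34 CPM in PYY A216. Against 3 counts over the control group, it was at least 14.3-fold higher in MetOP saline, where 2 libraries held all of its counts. This bound, too, covers counting error only. Sox6, which muscle and red cell precursors also use, had its maximum of 5.54 CPM in saline A232 and did not follow Col2a1. Trps1, a GATA-type repressor active in growth plate cartilage, had 0, 0, 0 and 0.474 CPM in controls A387, A389, A390 and A392. It had 2.52, 0.0819, 4.81, 0.724 and 0 CPM in saline A224, A226, A229, A232 and A265, so the groups overlapped. In the drug groups Trps1 ran from 0.443 to 1.37 CPM with semaglutide, from 0.887 to 3.29 CPM with PYY and from 0.191 to 1.45 CPM in the combination.

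Both receptors were counted in every library. Pth1r, the receptor of Pthlh and of parathyroid hormone, is also made by osteoblasts. It had 31.0, 13.0, 13.9 and 16.9 CPM in controls A387, A389, A390 and A392, and 47.8, 15.9, 24.3, 11.04 and 2.54 CPM in saline A224, A226, A229, A232 and A265. Its levels with semaglutide were 1.76, 3.37, 3.39, 10.5 and 2.07 CPM in A238, A240, A241, A242 and A243. Saline A265 lay within that range, and saline A232 and A265, like the semaglutide libraries, lay below the lowest control. With PYY it had 9.63, 49.5, 9.81 and 3.72 CPM in A215, A216, A219 and A220, and in the combination 7.98, 0.907, 19.04, 6.51 and 8.29 CPM in A248, A251, A253, A318 and A320. Fgfr3, the receptor that slows chondrocyte division, had 6.66, 2.58, 4.97 and 5.45 CPM in controls A387, A389, A390 and A392. It had 16.8, 7.33, 5.08, 4.56 and 2.54 CPM in saline A224, A226, A229, A232 and A265, and 0.705, 2.04, 2.55, 3.79 and 1.73 CPM in semaglutide A238, A240, A241, A242 and A243. These groups overlapped through saline A265 alone. With PYY it had 6.46, 28.0, 8.81 and 2.71 CPM in A215, A216, A219 and A220, and in the combination 2.25, 1.65, 10.03, 7.93 and 5.43 CPM in A248, A251, A253, A318 and A320.

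The sulfation enzymes supply and place the sulfate groups of chondroitin chains. Papss2, which makes the sulfate donor, had 1.89, 4.7, 3.1 and 25.4 CPM in controls A387, A389, A390 and A392, and 50.2, 21.7, 21.5, 6.15 and 7.99 CPM in saline A224, A226, A229, A232 and A265. It had 2.78, 6.12, 3.46, 7.81 and 5.15 CPM in semaglutide A238, A240, A241, A242 and A243. Saline A232 lay within the semaglutide range and A265 just above it. With PYY it had 11.03, 49.5, 6.39 and 3.41 CPM in A215, A216, A219 and A220, and in the combination 11.8, 2.79, 10.5, 2.46 and 1.67 CPM in A248, A251, A253, A318 and A320. Chst11, a chondroitin sulfotransferase, had counts in 14 libraries. It passed 1.2 CPM in saline A224 (6.57 CPM), saline A229 (1.54 CPM) and PYY A216 (7.11 CPM). Its levels were 0, 0.254, 0.502 and 0.592 CPM in controls A387, A389, A390 and A392 and at most 0.571 CPM with semaglutide and 0.584 CPM in the combination.

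**Figure D3:**
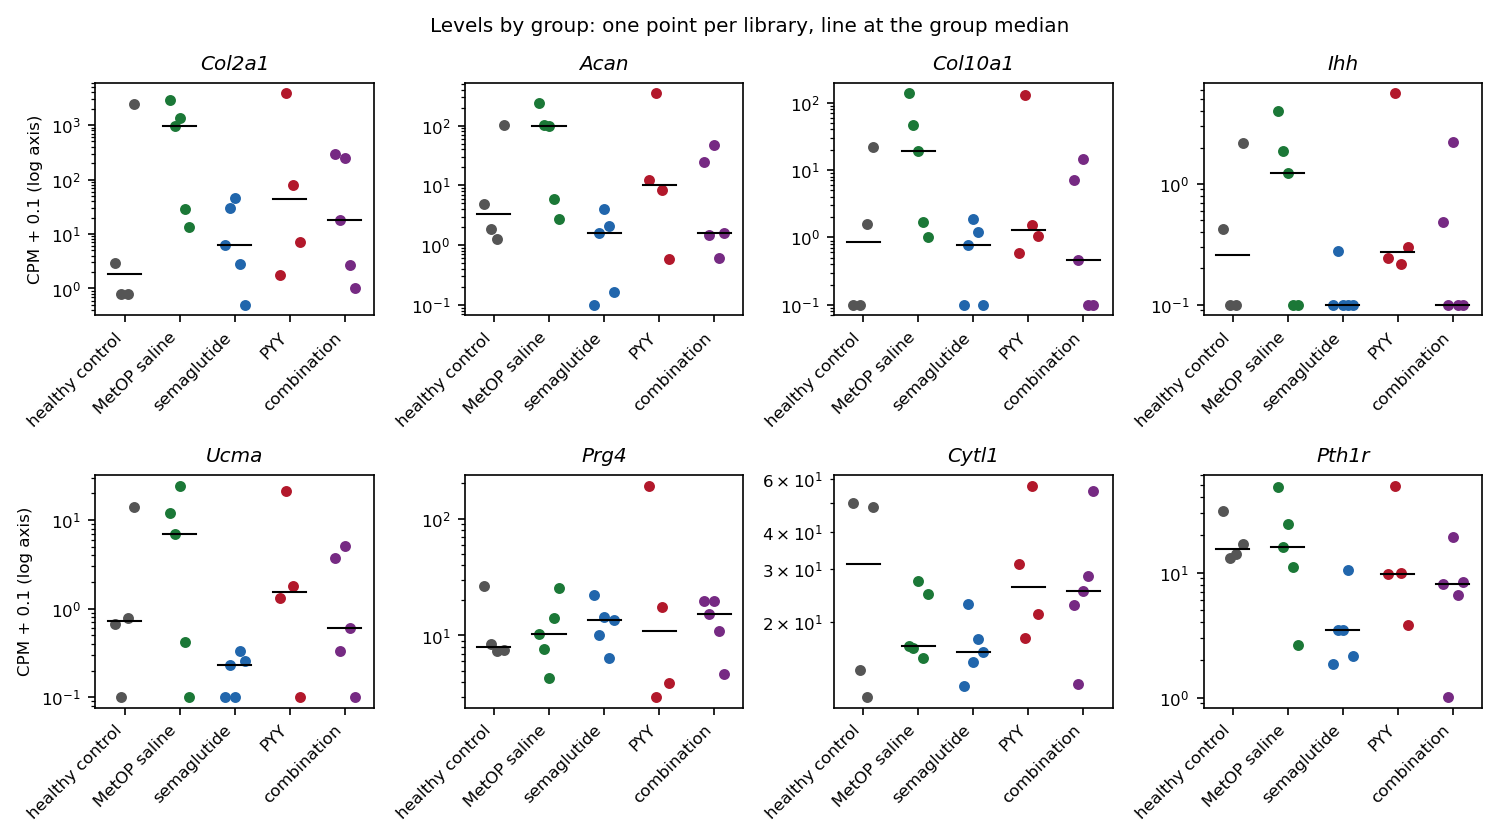
Levels of 8 of the genes by group, 1 point per library on a log axis of CPM plus 0.1, with a line at the group median. Points of Col2a1, Acan, Col10a1, Ihh and Ucma spread widely in controls, saline, PYY and combination, and Cytl1 lies between 11.1 and 56.8 CPM in all groups.

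Some libraries with little type II collagen still held other members. In PYY A215 the order on the FPKM scale was Prg4 (44.7), Chad (25.5), Comp (19) and Cytl1 (16.6), with Col2a1 at 1.69 CPM. The 7 tendon and ligament markers summed to 740 CPM in that library, against 31.2 to 188.5 CPM in the others, and none was at 0 in any group. Among them Thbs4, a matrix protein of tendon and muscle, was at 257 CPM and Tnmd, the tendon protein tenomodulin, at 36.0 CPM in A215. The tendon genes Scx and Mkx did not peak there. Scx was at 3.64 CPM in A215 against 11.4 CPM in semaglutide A242, and Mkx at 3.03 CPM against 3.67 CPM in control A392. The 6 synovium markers, a list that includes Prg4, summed to 260 CPM there and to 26.7 to 169 CPM elsewhere. In control A387, Col11a1 (66.9 CPM), Col11a2 (43.7 CPM) and Pth1r (31.0 CPM) were high beside a Col2a1 of 2.81 CPM, and the 10 osteoblast markers summed to 6026 CPM, close to saline A224 (6064 CPM) and PYY A216 (6216 CPM). Osteoclast markers also summed highest in these 3 libraries, at 595, 716 and 921 CPM. The part of these other tissues in the members' levels was not tested.

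**Figure D4:**
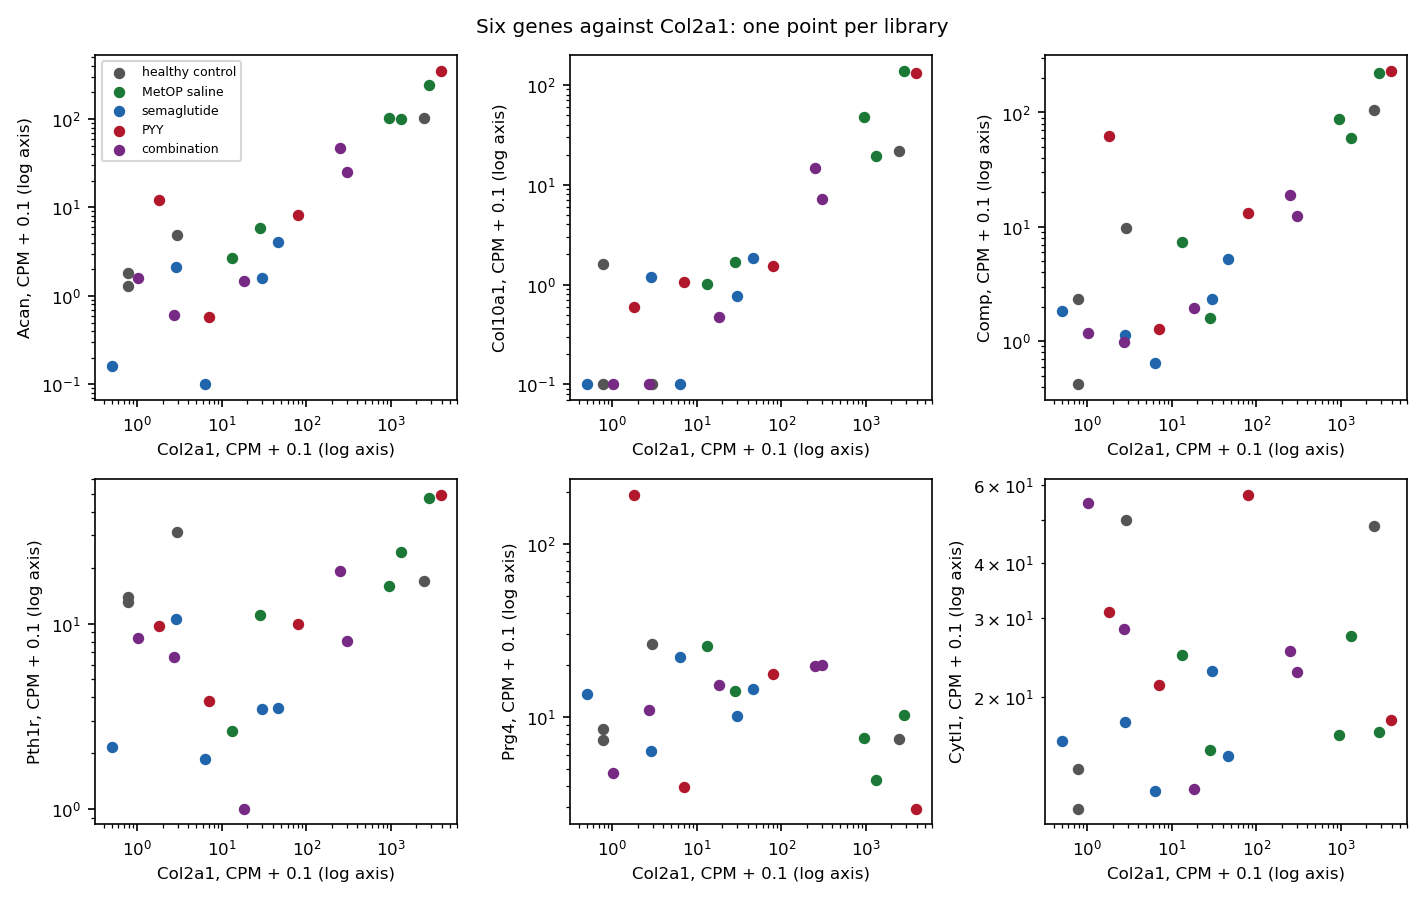
Level of Acan, Col10a1, Comp, Pth1r, Prg4 and Cytl1 against that of Col2a1, 1 point per library coloured by group, both axes log scales of CPM plus 0.1. Acan, Col10a1 and Comp climb with Col2a1 from about 10 CPM upward, while Prg4 and Cytl1 show no such climb and PYY A215 stands apart for Comp and Prg4.

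The first comparison puts MetOP saline beside the healthy controls. Cartilage genes were mostly higher in MetOP saline, but by an amount that 1 control library decided. Of the 32 tested genes, 28 were higher in MetOP saline (52.5% of all 15271 tested genes were higher and 47.4% lower), with a median log2 fold change of 1.21 against 0.04 over all genes. None passed edgeR's quasi-likelihood test at an adjusted p under 0.05 (0% of all genes), none by DESeq2, which called 51 genes, and none by limma voom, which called 0. At an unadjusted p under 0.05, 2 were higher and none lower (4.68% and 1.87% of all genes), namely Sox5 and Trps1, with the smallest edgeR adjusted p among the 32 at 0.683. No member's groups were free of overlap (1.57% of all genes were higher in this way and 1.2% lower). Log2 fold changes were 0.74 ± 2.12 (SE) for Col2a1, 1.72 ± 1.76 for Acan, 2.85 ± 2.05 for Col10a1, 1.30 ± 0.82 for Papss2, 3.83 ± 1.41 for Trps1 and -0.62 ± 0.43 for Cytl1. Without control A392 the median became 4.28, Col2a1 9.52, Col10a1 6.42 and Acan 5.13, and 19 of 32 genes were higher at an unadjusted p under 0.05. Without saline A224, Col2a1 was at -0.09, Col10a1 at 1.58 and the median at 0.30.

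Semaglutide against MetOP saline asks what the drug did in the disease model, and here the members had their lowest median log2 fold change of all comparisons. Levels with semaglutide were not below those of controls for every gene. The Col2a1 median was 6.18 CPM with semaglutide and 1.75 CPM in controls, and that of Acan 1.51 and 3.25 CPM. Of the 32 tested genes, 30 were lower with semaglutide (52.4% of all genes were lower), and the median log2 fold change was -4.65 against -0.04 over all genes. All 7 collagens of the fibrils, all 8 tested proteoglycan and matrix genes and both hypertrophic genes were lower. Prg4 (0.11 ± 0.78) and Pthlh were the 2 genes that were not. No gene of the set passed the edgeR test (0% of all genes passed), and the smallest adjusted p among them was 0.371. At an unadjusted p under 0.05, 23 of 32 were lower and none higher (7.24% and 4.18% of all genes), and limma voom gave 8 such genes and no call. DESeq2 called 97 genes, of which 6 belong to the set (Col11a1, Col11a2, Acan, Comp, Epyc and Col27a1). Col11a2 was the one member whose groups did not overlap (1.75% of all genes were lower in this way).

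By size, log2 fold changes with semaglutide were -5.91 ± 2.44 (SE) for Col2a1, -5.34 ± 2.31 for Col9a1, -4.67 ± 1.45 for Col11a1, -4.63 ± 1.29 for Col11a2 and -3.92 ± 1.25 for Col27a1. The other matrix genes stood at -5.90 ± 1.98 (Acan), -6.34 ± 2.54 (Hapln1), -5.15 ± 1.57 (Comp), -7.79 ± 2.75 (Matn3) and -3.81 ± 1.45 (Chad). The hypertrophic genes Col10a1 (-5.89 ± 2.20) and Ihh (-5.20 ± 2.15) and the upper-zone gene Ucma (-6.29 ± 1.94) had values whose errors overlapped, and the differences between genes were not tested. Fold changes nearer to 0 were found for Sox9 (-2.51 ± 0.96), Pth1r (-2.27 ± 0.75), Papss2 (-2.09 ± 0.78), Fgfr3 (-1.75 ± 0.61) and Cytl1 (-0.27 ± 0.41). Without saline A224, 13 of 32 genes were lower at an unadjusted p under 0.05, the median was -3.73 and Col2a1 stood at -5.09. Of the markers of other cells, 10 of 10 osteoblast genes were lower (8 at an unadjusted p under 0.05), with sums of 162 to 691 CPM with semaglutide against 351 to 6064 CPM in saline. Osteoclast markers were lower in 9 of 9 (4 at that p), erythroid markers in 8 of 8 (4 at that p) and adipocyte markers in 6 of 6, and muscle markers were higher in 9 of 9. Their part in the result was not tested. With the muscle level as a covariate, 14 of 32 genes were lower at an unadjusted p under 0.05 and 31 of 32 were below 0.

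PYY against MetOP saline showed no common direction. Of 32 tested genes, 13 were higher and 19 lower (49.5% and 50.5% of all genes), with a median log2 fold change of -0.07. None passed the edgeR test (0% of all genes), DESeq2 (5 genes called) or limma voom (0 called). Prg4 (2.14 ± 0.84, edgeR adjusted p = 0.939) was the one gene at an unadjusted p under 0.05 (3.46% of all genes were higher in this way). No member was free of overlap (1.11% of all genes were higher in this way and 0.825% lower). That Prg4 value rested on A215, since it was -0.52 without that library. The direction of the set depended on single libraries. It had 24 genes higher without A215, 28 without A219, 28 without A220 and 30 without saline A224, with medians up to 0.80, and 27 lower without A216. Without A216, Col2a1 moved from -0.06 ± 2.09 to -5.12, Col10a1 from -0.30 ± 1.85 to -5.44 and the median to -3.14. Cytl1 stood at 0.66 ± 0.43.

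In the combination most cartilage genes were lower than in MetOP saline, and the comparisons against saline all share the same 5 saline libraries. Of 32 tested genes, 28 were lower (47.5% of all genes), with a median log2 fold change of -2.28 against 0.02 over all genes. None passed the edgeR test (0% of all genes), DESeq2 (5 genes called) or limma voom (0 called). At an unadjusted p under 0.05, 4 were lower and none higher (1.6% and 1.46% of all genes), namely Col11a1 (-3.15 ± 1.35), Col11a2, Comp (-3.43 ± 1.44) and Papss2 (-1.89 ± 0.78). No member was free of overlap (0.223% of all genes were lower in this way and 0.177% higher). Col2a1 stood at -3.18 ± 2.14 and Col10a1 at -3.23 ± 1.91. Without saline A224, as without combination A251, A318 or A320, none of the 32 was lower at an unadjusted p under 0.05, and the medians without single libraries ran from -3.36 to -1.40. Osteoblast markers were lower in 9 of 10 and osteoclast markers in 9 of 9, with 4 of each at an unadjusted edgeR p under 0.05. Erythroid markers were lower in 8 of 8, adipocyte markers in 6 of 6 and tendon markers in 5 of 7. Muscle markers were higher in 8 of 9 and neutrophil markers in 7 of 7. The part of these markers in the result was not tested.

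**Figure D5:**
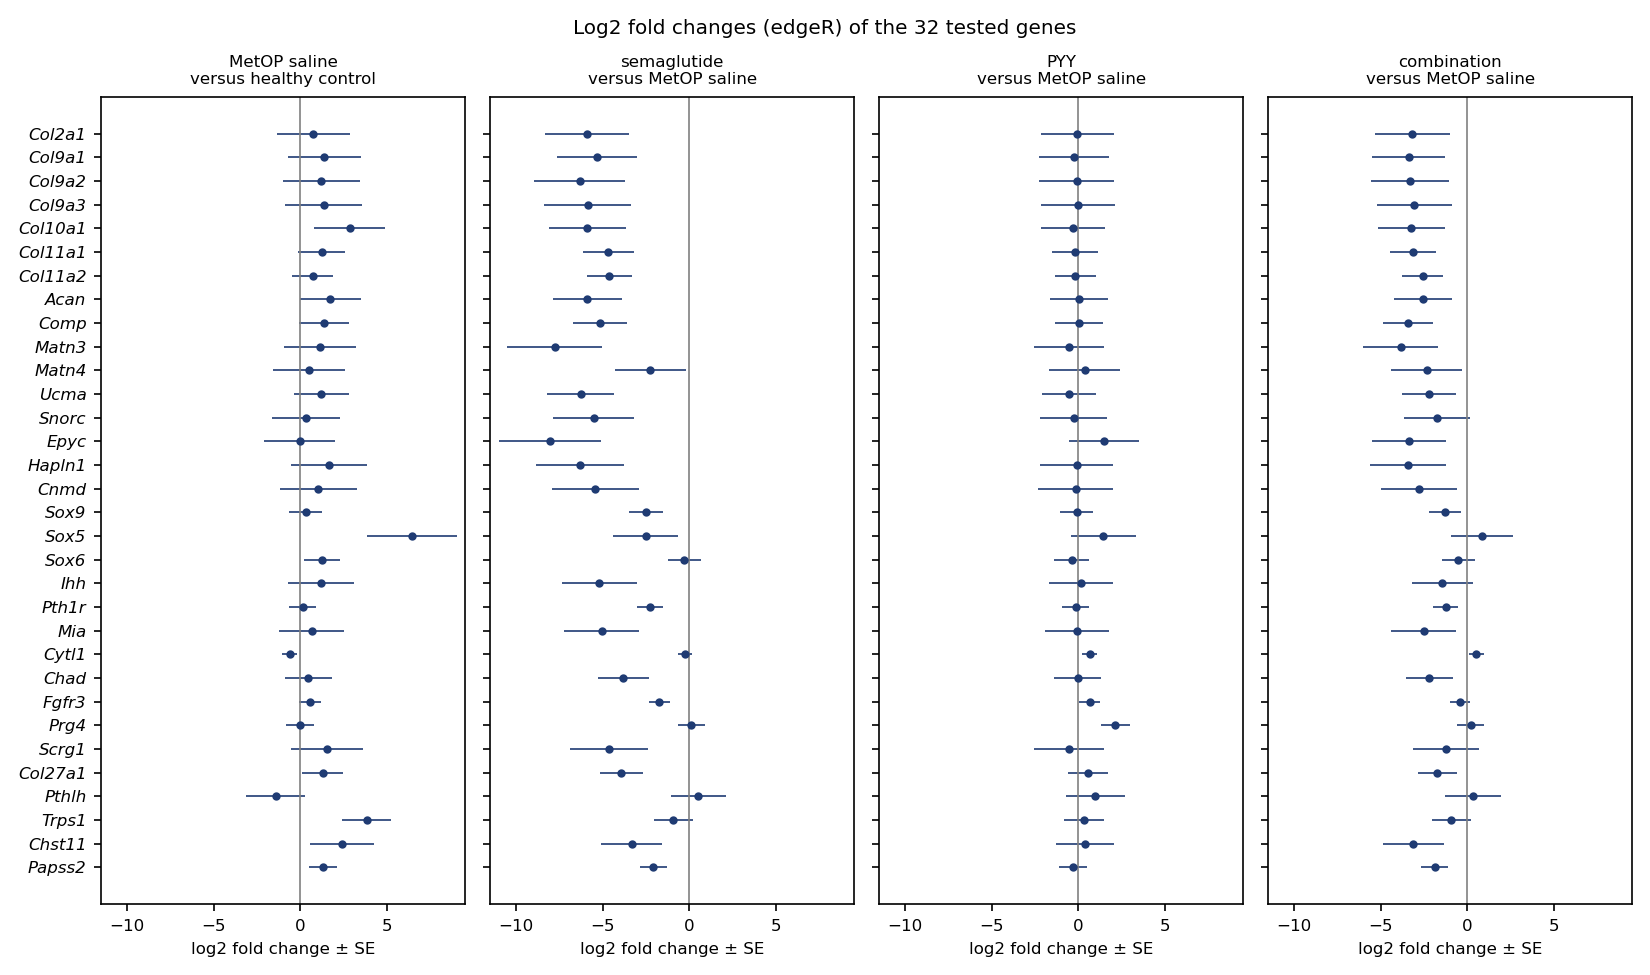
Log2 fold changes with their standard errors from edgeR for the 32 tested genes in the 4 comparisons that use MetOP saline, with a line at 0. Nearly all points lie left of 0 for semaglutide and, at smaller size, for the combination, and bars of most matrix genes cross 0 in the comparison with controls and with PYY. Fitted values of Sox5 and Epyc depend on groups with no count and are no bounds.

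The remaining comparisons set the drug groups against each other. Semaglutide against PYY had 31 of 32 genes lower with semaglutide (53.3% of all genes were lower and 46.7% higher), with a median of -4.48 against -0.06 over all genes. None passed the edgeR test, in which 1 of 15271 genes was called (0.00655%), and the smallest adjusted p among the 32 was 0.0948 for Fgfr3 (-2.40 ± 0.64). The called gene was Ddr2, a collagen receptor of connective tissue outside the set (-2.43 ± 0.322, edgeR adjusted p = 0.0014), named after its value was seen. At an unadjusted p under 0.05, 24 of 32 were lower (9.93% of all genes were), among them Col11a2 (-4.46 ± 1.30), Col27a1 (-4.45 ± 1.30), Comp (-5.18 ± 1.60), Col2a1 (-5.86 ± 2.46), Col10a1 (-5.58 ± 2.21), Prg4 (-2.03 ± 0.83) and Cytl1 (-0.93 ± 0.43). For Prg4, PYY A215 was at 191 CPM, and the group medians were 13.5 CPM with semaglutide and 10.7 CPM with PYY. Its sign turned when 1 library was left out. DESeq2 called 504 genes, of which 7 are members (Col2a1, Col11a1, Col11a2, Acan, Comp, Fgfr3 and Col27a1), and limma voom called none of the members. No member was free of overlap (2.98% of all genes were lower in this way and 2.89% higher). The count of 24 became 2 with the muscle level as covariate and 1 with limma voom. Osteoblast markers were lower in 10 of 10 (9 at an unadjusted p under 0.05), osteoclast markers in 8 of 9 and tendon markers in 6 of 7, and muscle markers were higher in 9 of 9. Erythroid markers were lower in 8 of 8 and neutrophil markers higher in 7 of 7. Without PYY A216, 4 of 32 were lower at an unadjusted p under 0.05, the median was -1.05, Fgfr3 was at -1.47 and Col11a2 at -0.99. Without PYY A220, 1021 genes were called, where the main fit tested 15271, and 4 of the 32 members were among them (Col11a2, Comp, Fgfr3 and Col27a1).

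In the combination, 29 of 32 genes were higher than with semaglutide alone (53.7% of all genes were higher and 46.3% lower), with a median of 2.11, and 2 of them (Ucma 4.07 ± 1.81 and Fgfr3 1.33 ± 0.60) had an unadjusted p under 0.05 (3.99% of all genes were higher and 1.66% lower in this way). None passed edgeR (0% of all genes) or limma voom (0 called), and DESeq2 called 16 genes, with Epyc among them. Col2a1 stood at 2.74 ± 2.11 in that comparison. Osteoblast markers were higher in 10 of 10 (2 at an unadjusted p under 0.05), erythroid markers in 8 of 8 and neutrophil markers in 7 of 7, and muscle markers were lower in 9 of 9. Against PYY alone, 32 of 32 genes were lower in the combination (48% of all genes were lower and 52% higher), with a median of -2.35, and 4 had an unadjusted p under 0.05 (4.19% of all genes), Comp (-3.46 ± 1.48) and Prg4 (-1.95 ± 0.83) among them. Prg4 was at 191 CPM in PYY A215, and its group medians were 15.2 CPM in the combination and 10.7 CPM with PYY. Leaving out 1 library turned the sign of Prg4. None passed edgeR (0% of all genes), and DESeq2 and limma voom called 13 genes and 1 gene, none of them a member. Without PYY A216 the direction turned, with 22 of 32 genes higher and a median of 0.73. With the muscle level as covariate 15 were lower and 17 higher, and limma voom had 26 lower and none at an unadjusted p under 0.05. Osteoblast markers were lower in 9 of 10, osteoclast markers in 8 of 9 and tendon markers in 6 of 7, and muscle markers were higher in 8 of 9. Erythroid markers were higher in 8 of 8 and neutrophil markers in 7 of 7 (2 at an unadjusted edgeR p under 0.05). For the drug groups, too, the part of these markers was not tested. No member was free of overlap in either comparison (0.288% of all genes were higher against semaglutide and 1.07% lower and 0.517% higher against PYY). The interaction, which asks whether the log2 effects of both drugs add up, was above 0 for 27 of 32 genes (51.7% of all genes), with a median of 2.06. No member passed edgeR (0% of all genes), DESeq2 (3 genes called) or limma voom (0 called), and none had an unadjusted edgeR p under 0.05 (2.89% of all genes were higher in this way). The upper-zone gene Ucma stood at 4.60 ± 2.41 and the joint surface gene Prg4 at -2.06 ± 1.14. The sign of Prg4 turned when 1 library was left out. Without PYY A216, 20 of 32 members were above 0 at an unadjusted p under 0.05 and the median was 5.30.

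Other genes of the same pathways, on lists drawn up beside the 33 genes, held no call of the edgeR test in any comparison. With semaglutide against MetOP saline, 11 of 13 tested genes of hypertrophy and ossification were lower (52.4% of all genes were), 10 of them at an unadjusted p under 0.05 (7.24% of all genes), and 1 was higher at that p (4.18%). Ibsp, bone sialoprotein, was at 17.5 ± 11.3 CPM (SD, n = 5) against 205 ± 164 (-3.55 ± 0.85 on the log2 scale), and Mmp13, the collagenase of hypertrophic cartilage and osteoblasts, at 21.2 ± 20.2 against 245 ± 233 CPM (-3.52 ± 0.92). Further cartilage matrix genes were lower in 17 of 17, 9 at an unadjusted p under 0.05, and 5 of them had no overlap between groups (1.75% of all genes were lower in this way). They included biglycan (Bgn, -2.42 ± 0.65) and Clec3a, a lectin of cartilage, at 0.162 ± 0.231 against 17.9 ± 20.2 CPM (-6.80 ± 2.13). In the hedgehog list, which holds the receptors and effectors of Ihh, 7 of 8 were lower and Ptch1, both receptor and target, stood at 3.99 ± 1.27 against 14.6 ± 11.7 CPM (-1.87 ± 0.72). Of the growth signals 8 of 18 were lower, with Chrdl1, a BMP antagonist, at -2.15 ± 0.96. Sulfation and chain-building enzymes were lower in 13 of 18 (Papss1 -1.39 ± 0.47), and cartilage proteases and their inhibitors in 10 of 12 (Timp1 -2.58 ± 0.65).

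In semaglutide against PYY, 17 of 17 further matrix genes were lower and 14 had an unadjusted p under 0.05 (53.3% and 9.93% of all genes), with Bgn at -2.98 ± 0.68 and Cilp, a cartilage intermediate layer protein, at -2.70 ± 0.61. Of the proteases 10 of 12 were lower (Htra1 -1.85 ± 0.41), and of the hypertrophy and ossification genes 11 of 13 (Mmp13 -3.55 ± 0.94). Their smallest edgeR adjusted p values were 0.071, 0.071 and 0.0948. The groups overlapped for Bgn, Cilp, Htra1 and Mmp13. PYY levels varied widely, at 34.1 ± 45.8 CPM (SD, n = 4) for Cilp, 249 ± 351 for Mmp13, 205 ± 152 for Bgn and 42.5 ± 27.2 for Htra1. With PYY against MetOP saline, 15 of 17 further matrix genes were higher (49.5% of all genes were), 3 at an unadjusted p under 0.05 (3.46%). Versican (Vcan) had 173 CPM in PYY A215 and 7.74, 14.1 and 3.49 CPM in A216, A219 and A220, against 2.05 to 5.75 CPM in saline. Its log2 fold change was 3.74 ± 1.04, and 1.26 without A215. Fgfr1 stood at 1.06 ± 0.38. In MetOP saline against control, all 17 further matrix genes were higher (median 0.67; 52.5% of all genes were higher), none at an unadjusted p under 0.05. Groups did not overlap for Chrdl1 (2.37 ± 1.06), the protease Adamts1 (0.67 ± 0.29) and Frzb, a Wnt antagonist of cartilage (3.87 ± 1.97), which were higher (1.57% of all genes), nor for the protease Ctsd (-0.31 ± 0.20), which was lower (1.2%). In the combination, 13 of 13 hypertrophy and ossification genes were lower than in MetOP saline (47.5% of all genes were; Ibsp -2.66 ± 0.82), and against PYY 15 of 17 further matrix genes were lower (48% of all genes were; Cilp -2.10 ± 0.60) and 11 of 12 proteases (Mmp2 -1.55 ± 0.47). Against semaglutide alone, 17 of 17 further matrix genes were higher in the combination (53.7% of all genes were). Frzb (4.88 ± 1.86) was at 2.35 ± 4.80 against 0.0761 ± 0.170 CPM, with overlap and an SD above its mean in both groups. The growth factor Igf2 was at 43.1 ± 7.85 against 26.3 ± 3.16 CPM (0.71 ± 0.26) with no overlap.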

How the data were processed

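Raw counts per Ensembl gene and FPKM values were deposited by the authors, 1 column per library for 23 libraries. Per the submitters' processing notes, mRatBN7.2 served as genome and DESeq2 1.42.0 among the tools. Which aligner and counter made the table is not given in the sources used. FPKM served for orders of level within a library. The labels' protocol gives a stranded and an unstranded variant and leaves the choice between them unstated, which makes counts of overlapping genes uncertain. Genes were tested on the deposited counts in R 4.3.3 with edgeR 4.0.16 (TMM, filterByExpr by group, robust quasi-likelihood test, 1 mean per group, 18 residual degrees of freedom, common biological coefficient of variation 69.9%), with Benjamini-Hochberg adjustment over 15271 genes. DESeq2 1.42.0 and limma 3.58.1 (voom) were alternatives, and the fit was tested on simulated data. Library totals were 19.25 to 40.65 M counts. Shares carry exact (Clopper-Pearson) 95% intervals, which cover counting error only.

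The members and lists were chosen with earlier results of these data known. By rule, per-library values are given for Col2a1, Acan, Comp, Col10a1, Ihh, Prg4, Pthlh, Ucma, Pth1r, Sox9, Fgfr3, Matn1, Trps1, Chst11 and Papss2, and ranges for the others. From each pathway list, genes were taken from the 2 tested ones of smallest p. Col11a1 was added after its values were seen. Of the list entries, 4 did not match by symbol (Gas1, Impad1, Myh1 and Mylpf).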

Additional observations from a re-analysis of the deposited data

Results flagged for a closer look

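Within each group of 4 or 5 libraries, the highest and lowest library was checked for a gap to its neighbour above Dixon's 95% critical value. Gaps were measured on log2 CPM, while the levels below are in CPM. Chance flags about 1 in 20 groups, so of 160 groups of values (genes by groups) about 8.0 would be marked by chance, and 21 were. That rate assumes normal, independent values: in 14 of the 21 the other libraries were all at 0, so that any count is marked, and genes of 1 library are not independent. Control A392 stood above the other controls for 9 genes. Its levels were 2458 CPM for Col2a1, 121 for Col9a2, 50.1 for Matn3, 18.1 for Snorc, 5.03 for Epyc, 111 for Hapln1, 81.5 for Cnmd, 9.12 for Scrg1 and 0.474 for Trps1. Control A387 stood above the others for Prg4 at 26.2 CPM.

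In MetOP saline, A224 was alone with Matn1 at 1.67 CPM, and A232 was low for Sox9 at 0 CPM. With semaglutide, A240 was marked for Matn3 (0.665 CPM) and Ihh (0.177 CPM), A238 for Matn4 (0.587 CPM) and A243 for Sox5 (0.308 CPM), all from few counts. With PYY, A216 was marked for Ihh at 5.54 CPM and Matn1 at 0.488 CPM. In the combination, A253 was high for Matn4 at 0.581 CPM, A320 was low for Sox9 at 0.471 CPM and A318 low for Sox6 at 0 CPM.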

How the results depend on the processing

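No paired analysis was possible because the library numbers in the titles are not shared between groups. In the order of the report, DESeq2 called 51, 97, 5, 5, 504, 16, 13 and, for the interaction, 3 genes, and limma voom called 1 in combination versus PYY. In semaglutide versus PYY the members' median was -2.23 with voom. With the muscle level as covariate it was -1.03 there, -2.53 for PYY versus saline, 0.0759 for combination versus PYY and 4.31 for the interaction, and Prg4 in semaglutide versus saline turned to -0.21. With only the compared groups fitted, Col2a1 in PYY versus saline turned to 0.0086. With FPKM the saline median of the Col10a1 share was 6.84%. The cause was not tested.

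Leaving out 1 library at a time called 0 to 0 genes in saline versus control, semaglutide versus saline, combination versus saline and the interaction. It called 0 to 1 in PYY versus saline and 1 to 1021 in semaglutide versus PYY (A220 left out for both highest), 0 to 3 in combination versus semaglutide (A251) and 0 to 2 in combination versus PYY (A220). Medians over the members ran from 0.30 to 4.28 for saline versus control, -4.96 to -3.73 for semaglutide versus saline, -3.14 to 0.80 for PYY versus saline and -3.36 to -1.40 for combination versus saline. They ran from -4.95 to -1.05 for semaglutide versus PYY, 1.36 to 2.52 for combination versus semaglutide, -3.26 to 0.73 for combination versus PYY and 1.10 to 5.30 for the interaction. Median Col10a1 shares ran from 0 to 0.879% in controls, 4.68 to 5.01% in saline, 1.08 to 2.91% with semaglutide, 3.30 to 12.1% with PYY and 1.00 to 2.16% in the combination. Median Prg4 shares ran from 90.3 to 91.4%, 0.566 to 16.9%, 47.3 to 73.9%, 17.99 to 35.7% and 26.5 to 63.2% in the same order. Among the log2 fold changes printed in the report, those that turned sign were Col2a1 in saline versus control (-0.0855 to 9.52) and PYY versus saline (-5.12 to 0.77), Col10a1 in PYY versus saline (-5.44 to 0.97) and Prg4 in 5 comparisons. Prg4 ran from -0.14 to 0.56 in semaglutide versus saline, -0.52 to 2.59 in PYY versus saline, -2.35 to 0.73 in combination versus PYY, -2.42 to 0.62 in semaglutide versus PYY and -2.51 to 0.63 in the interaction. Depth limited Pthlh, Matn1, Matn4 and Sox5, which had few counts.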
